A study of Homo sapiens with 8 samples.

Results

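Genes of heme breakdown and iron handling were examined in A549 lung cancer cells in which NFE2L2 had been silenced. The group holds 10 genes, matched by GENCODE symbol, of 60291 genes in the count files. They were chosen by name for their roles, with earlier results of these data known. They are the heme oxygenases HMOX1 and HMOX2, the biliverdin reductases BLVRA and BLVRB, the ferritin subunits FTH1 and FTL, the transferrin receptor TFRC, the iron exporter SLC40A1 (ferroportin), the last enzyme of heme synthesis FECH and the porphyrin transporter ABCB6. With NFE2L2 siRNA, HMOX1, BLVRB, FTH1, FTL, FECH and ABCB6 were reduced, by 1.69-fold for FECH to 3.84-fold for HMOX1, whereas HMOX2, BLVRA, TFRC and SLC40A1 did not pass the test.

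A549 is an established human lung adenocarcinoma line, and the study's text states that it carries a loss-of-function mutation of KEAP1, the negative regulator of NRF2, which all groups share. NRF2 protein is constitutively high in this line without silencing and was not measured in these libraries. The NFE2L2 siRNA group comprised 3 libraries, each from 1 transfection with a different duplex against NFE2L2. The control siRNA group comprised 4 libraries, from 2 transfections with each of 2 control duplexes, and 1 mock library came from cells given the transfection reagent Lipofectamine RNAiMAX without siRNA. Each transfection used 250000 cells and, except for the mock, 5 nmol of siRNA, and RNA was collected after 48 h for strand-specific total RNA sequencing with ribosomal RNA depletion. All cells are of 1 line, so that p-values measure the spread between transfections of that line. In the NFE2L2 siRNA group each transfection had its own duplex, so that this spread cannot be told apart from differences between duplexes. The control spread includes the difference between the 2 control duplexes, and the 2 transfections of a control duplex share its sequence.

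Heme oxygenase opens the heme ring and releases iron, carbon monoxide and biliverdin, and biliverdin reductase turns biliverdin into bilirubin. Released iron is stored in ferritin, a hollow shell of heavy (FTH1) and light (FTL) chains, or leaves the cell through ferroportin, while transferrin receptor brings iron in. NRF2, the protein product of NFE2L2, binds antioxidant response elements in DNA together with small MAF proteins, and BACH1, a repressor that heme releases from DNA, binds the same elements. HMOX1 and the ferritin genes are textbook targets of NRF2. Ferritin, TFRC and SLC40A1 are in addition controlled after transcription by iron regulatory proteins, whose activity was not measured here.

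The letters of a common form of the antioxidant response element, TGACTCAGC, were searched on both strands of the 10 kb before the start of each gene's canonical transcript in GRCh37, and 5 of the 10 genes held a match. The matches are shown because they place the sequence that NRF2 can bind beside the changes given below. Each is written 5′ to 3′ on the strand of its gene, with the 9 matching letters in capitals, which read as the reverse complement of the searched letters where the match is on the opposite strand.
HMOX1, chr22:35768002-35768030, plus strand, 9077 bases upstream: tgtttttcctGCTGAGTCAcggtcccgag
HMOX1, chr22:35768060-35768088, plus strand, 9019 bases upstream: atctgttttcGCTGAGTCAcggtcccggt
HMOX1, chr22:35768089-35768117, plus strand, 8990 bases upstream: gtctgttttcGCTGAGTCAcggtctagag
HMOX1, chr22:35773139-35773167, plus strand, 3940 bases upstream: gctagattttGCTGAGTCAccagtgcctc
FTL, chr19:49467189-49467217, plus strand, 1367 bases upstream: gagctcagcaTGACTCAGCagtcgctgcc
FTH1, chr11:61739505-61739533, minus strand, 4417 bases upstream: ctagcagagtGCTGAGTCAcggtgggaca
FECH, chr18:55254203-55254231, minus strand, 287 bases upstream: aaagttatttGCTGAGTCAtggctgagga
BLVRA, chr7:43796374-43796402, plus strand, 1895 bases upstream: tgtactggtcTGACTCAGCaagtgaacat

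All of these lie between annotated genes in GENCODE, except the HMOX1 match 3940 bases upstream, which is in an exon of the lncRNA ENSG00000282041. Of the 19861 coding genes searched in the same way, 12.9% held at least 1 match and 1.13% at least 2. HMOX1 was the 1 gene with 4 matches, and 3 of its 4 lie close together, 8990 to 9077 bases before the start of the canonical transcript at 35777089, which lies within the annotated gene. No match was present for HMOX2, BLVRB, TFRC, SLC40A1 or ABCB6 in these windows, and BLVRA, which holds 1, was among the genes that did not pass the test. Other forms of the element were not searched in these windows, so that a gene without a match may hold one of them. The genes and this search were chosen with earlier results of these data known. The occurrence of the letters is a description and does not show that the protein is bound.

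**Figure D1:**
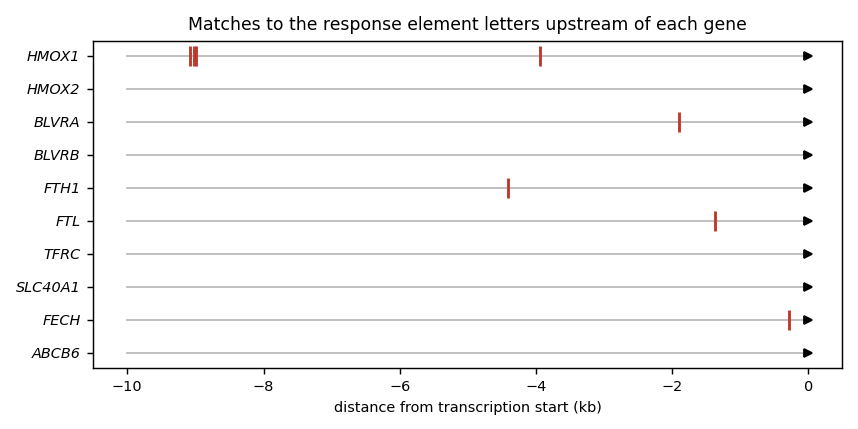
Positions of matches to the 9-letter response element upstream of each gene. The horizontal axis is the distance from the start of the canonical transcript in kb, the arrowhead is the start and each red mark is 1 match on either strand; HMOX1 has 4 marks, BLVRA, FTH1, FTL and FECH have 1 each and the other genes have none.

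The shorter and more permissive core TGACNNNGC, where N is any base, was searched on both strands of RefSeq promoter windows, which run from 250 bases before to 50 after a gene's start in GRCh38.p14. A window was found for 8 of the 10 genes, and HMOX1 and FTH1 have no entry. The core was present for ABCB6 and FECH, while 13.3% of 35116 windows of that length held it. Both matches that were found are shown, again on the gene's strand with the match in capitals. Their occurrence is a description and does not show that the protein is bound.
ABCB6, chr2:219219092-219219120 in GRCh38.p14, minus strand, 152 bases upstream: cctgggcacgTGACCAAGCcggctctgct
FECH, chr18:57586722-57586750 in GRCh38.p14, minus strand, 38 bases upstream, match on the opposite strand: ccgggagggcGCGAGGTCAgggggctggg

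Levels are given as reads counted on a gene and as CPM, reads per 1000000 gene counts after TMM normalization. Between 35525141 and 41645410 reads were counted on genes per library, so that 3 reads, the floor used here, correspond to 0.0720 to 0.0844 CPM. A gene was called where the two-sided quasi-likelihood test of edgeR gave a Benjamini-Hochberg adjusted p under 0.01 over the 17811 genes that reached 10 reads in any of the 7 compared libraries. Log2 fold changes are NFE2L2 siRNA minus control siRNA. Each gene was also compared by permutation, exact and two-sided, across the 35 divisions of the 7 libraries, where the smallest p is 0.0571. RNA from bulk cultures was counted, so that fewer cells of a kind and less RNA per cell cannot be told apart.

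NFE2L2 itself had 1178, 2044 and 1262 reads with duplexes 1, 2 and 3 and 3974 to 4227 reads in the control libraries. Its level was thus 29.5%, 46.6% and 26.6% of the control mean, with the most transcript left by duplex 2, and the log2 fold change was −1.55 (SE 0.178). The epithelial markers EPCAM, CDH1, KRT7, KRT8, KRT18 and KRT19 were read in every library, with a summed level of 8434 to 13046 CPM with NFE2L2 siRNA and 8666 to 9278 CPM in the controls. The 6 erythroid markers, which include ALAS2 and the globins, had at most 3 reads each in any library. The 5 leukocyte markers summed to 7.90 to 11.5 CPM with NFE2L2 siRNA and 4.81 to 6.92 CPM in the controls, nearly all of it CD14, with CD163 at 0 throughout. The 3 fibroblast markers summed to 9.41 to 13.99 and 4.15 to 4.64 CPM, nearly all of it COL1A1, and the 2 of 3 endothelial markers that were matched summed to 0.614 to 0.985 and 0.215 to 0.304 CPM. Their part in the results was not tested.

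Of the 10 genes, all had enough reads to be tested. With NFE2L2 siRNA 6 were reduced, 0 were increased and 4 did not pass the threshold, where 1.36% of all tested genes were reduced and 1.39% increased. The median log2 fold change of the 10 genes was −0.90, beside 0.01 for all tested genes. The group was chosen with earlier results of these data known, so that the comparison with all genes is a description. For the 6 reduced genes all 3 NFE2L2 siRNA libraries were lower than all 4 control libraries, which was the case for 11.4% of all tested genes, and in the other 4 genes the groups overlapped. Each of the 6 had an exact permutation p of 0.0571, the smallest that this design can give.

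**Figure D2:**
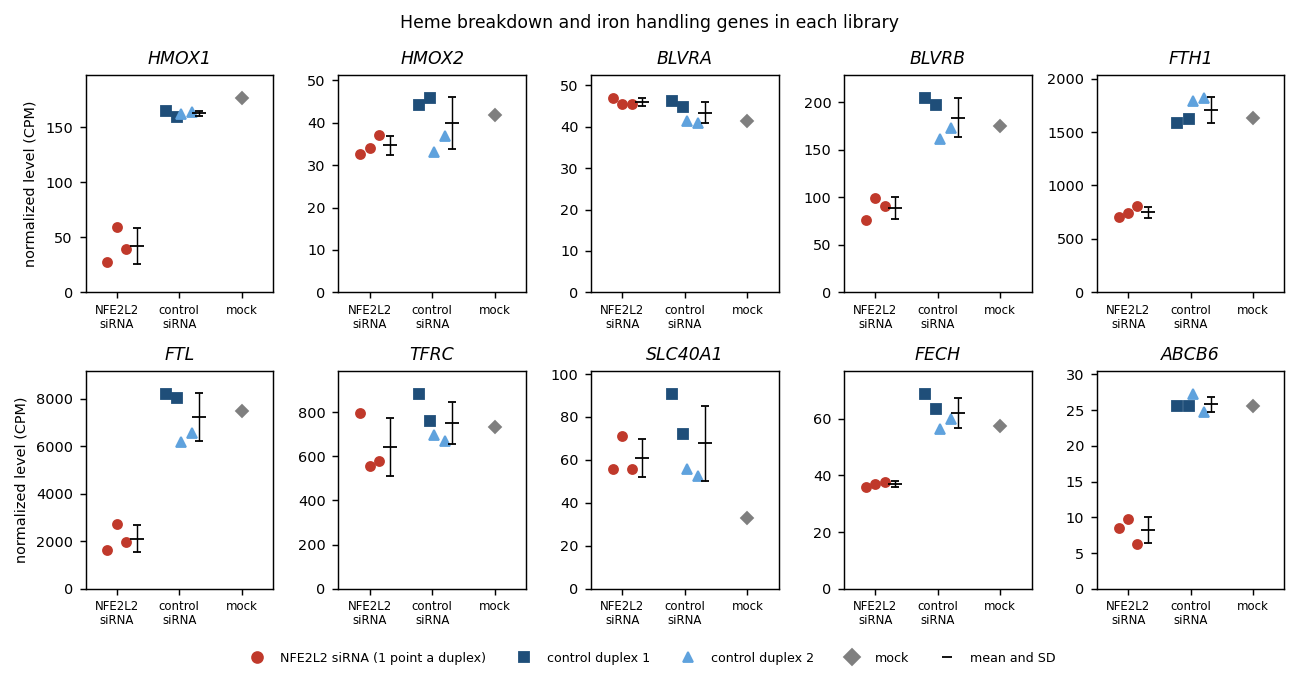
Normalized level of each gene in all 8 libraries. The vertical axis is CPM from 0 on a scale of its own for each gene, points are libraries (NFE2L2 duplexes, control duplexes 1 and 2, mock), and the black bar is the mean with the SD of the 3 NFE2L2 siRNA or 4 control libraries. The groups are apart for HMOX1, BLVRB, FTH1, FTL, FECH and ABCB6 and overlap for HMOX2, BLVRA, TFRC and SLC40A1.

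Of the 2 heme oxygenases, HMOX1 was reduced and HMOX2 did not pass the test. HMOX1 (ENSG00000100292.12, chromosome 22 from 35776354 to 35790207, plus strand, GRCh37), the inducible heme oxygenase, had 992, 2353 and 1684 reads with NFE2L2 duplexes 1, 2 and 3, and 6126, 5935, 6008 and 5932 reads in the control libraries. The controls were close together and all far above the NFE2L2 siRNA libraries. The level was 42.3 ± 16.2 CPM (SD, n = 3) with NFE2L2 siRNA and 162 ± 2.27 CPM (SD, n = 4) in the controls. This is a 3.84-fold reduction, with a log2 fold change of −1.94 (SE 0.218, 95% interval −2.43 to −1.45, edgeR adjusted p = 0.000833).

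HMOX2 (ENSG00000103415.7, chromosome 16 from 4524691 to 4560348, plus strand), the constitutive heme oxygenase, had 1171, 1344 and 1584 reads after NFE2L2 silencing, and 1652, 1708, 1223 and 1333 with the control duplexes. The NFE2L2 siRNA libraries overlapped those of control duplex 2 and lay below those of control duplex 1. The log2 fold change was −0.21 (SE 0.130, 95% interval −0.50 to 0.08, edgeR adjusted p = 0.359; exact permutation p = 0.286). For each read on HMOX2 there were 0.847, 1.75 and 1.06 reads on HMOX1 with NFE2L2 siRNA and 3.47 to 4.91 in the control libraries, a ratio that does not depend on library depth. The ratios of the groups did not overlap (exact permutation p = 0.0571).

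Of the 2 biliverdin reductases, BLVRB was reduced and BLVRA did not pass the test. BLVRB (ENSG00000090013.5, chromosome 19 from 40953672 to 40971671, minus strand), which reduces biliverdin IX beta and also acts as a flavin reductase, was covered by 2739, 3896 and 3881 reads in the NFE2L2 siRNA libraries and by 7626, 7323, 5959 and 6265 in the controls. Even the lowest control library, of control duplex 2, lay above all 3 NFE2L2 siRNA libraries. The level was 88.8 ± 11.4 CPM (SD, n = 3) against 184 ± 20.3 CPM (SD, n = 4), a log2 fold change of −1.05 (SE 0.123, 95% interval −1.32 to −0.77, edgeR adjusted p = 0.00108).

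BLVRA (ENSG00000106605.6, chromosome 7 from 43798279 to 43846941, plus strand), which acts on biliverdin IX alpha, the product of heme oxygenase, received 1684, 1790 and 1936 reads after NFE2L2 silencing and 1724, 1670, 1539 and 1483 in the controls. The groups overlapped, with a log2 fold change of 0.08 (SE 0.0881, 95% interval −0.11 to 0.28, edgeR adjusted p = 0.607; exact permutation p = 0.229). Reads on BLVRB per read on BLVRA were 1.63, 2.18 and 2.00 with NFE2L2 siRNA and 3.87 to 4.42 in the controls, again without overlap (exact permutation p = 0.0571).

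The ferritin genes were the most abundant of the group. Per kb of the canonical transcript, the control level was 8311 CPM for FTL and 1417 CPM for FTH1, beside 8.09 CPM for FECH, the lowest of the 10. FTL (ENSG00000087086.9, chromosome 19 from 49468566 to 49470136, plus strand), the light chain, was counted 58411, 107013 and 84670 times with the NFE2L2 duplexes and 305429, 299285, 228413 and 237690 times in the controls. The 2 libraries of control duplex 1 were higher than those of duplex 2, and all 4 were above the NFE2L2 siRNA libraries. FTL took 0.618% to 0.791% of all gene counts in the controls and 0.163% to 0.277% with NFE2L2 siRNA, and its rank among all genes by mean level moved from 7 to 22. The level was 2111 ± 554 CPM (SD, n = 3) against 7239 ± 1023 CPM (SD, n = 4), a 3.43-fold reduction with a log2 fold change of −1.78 (SE 0.185, 95% interval −2.19 to −1.36, edgeR adjusted p = 0.000516).

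FTH1 (ENSG00000167996.11, chromosome 11 from 61727190 to 61735106, minus strand), whose chain oxidizes iron for storage, was counted 25117, 29254 and 34299 times with the NFE2L2 duplexes and 59172, 60362, 66489 and 65837 times in the controls. Here control duplex 1 gave the lower of the control values, and the groups did not overlap. The level was 750 ± 52.1 CPM (SD, n = 3) against 1705 ± 119 CPM (SD, n = 4), with a log2 fold change of −1.19 (SE 0.0971, 95% interval −1.40 to −0.97, edgeR adjusted p = 0.000126). There were 2.33, 3.66 and 2.47 reads on FTL per read on FTH1 with NFE2L2 siRNA, and 5.16, 4.96, 3.44 and 3.61 in the controls. The ratio with NFE2L2 duplex 2 exceeded both values of control duplex 2, and a difference between the groups did not pass the test (exact permutation p = 0.171).

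Both ferritin genes have many processed pseudogenes, and a read that fits a pseudogene and its parent gene equally well is not unique and is left out of the counts. Reads aligned to more than 1 place were 18.2% to 19.1% of the counted entries of each NFE2L2 siRNA library and 16.9% to 17.7% of those of each control library, and how many of them came from ferritin transcripts was not tested. The 25 FTH1 pseudogenes in the files, 13 of them with reads, took 736 to 898 reads in sum with NFE2L2 siRNA and 1730 to 2029 in the controls, which was 2.62% to 3.09% of the reads on FTH1 over all 8 libraries. Of the 8 that were tested, 6 were reduced, among them FTH1P8 with a log2 fold change of −1.20 (SE 0.119) and FTH1P2 with −1.36 (SE 0.128), beside −1.19 for FTH1.

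Of the 16 FTL pseudogenes, 4 had reads, and their sum was 131 to 209 with NFE2L2 siRNA and 478 to 700 in the controls, or 0.195% to 0.243% of the reads on FTL. FTLP3, the 1 that was tested, had a log2 fold change of −2.01 (SE 0.185), beside −1.78 for FTL. Reads on such near-identical copies cannot be told apart from misplaced reads of the parent gene, so that the pseudogene values are uncertain. With the pseudogene reads added to their parents, the log2 fold change was −1.19 for FTH1 and −1.78 for FTL, as without them.

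The 2 genes of iron entry and exit did not pass the test. TFRC (ENSG00000072274.8, chromosome 3 from 195739382 to 195809024, minus strand), the receptor that takes up transferrin-bound iron, received 28496, 21881 and 24623 reads after NFE2L2 silencing and 32868, 28259, 25887 and 24199 in the controls. In CPM, the library of NFE2L2 duplex 1 lay among the controls, and those of duplexes 2 and 3 lay below all 4 of them. The log2 fold change was −0.23 (SE 0.146, 95% interval −0.55 to 0.10, edgeR adjusted p = 0.374; exact permutation p = 0.229).

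SLC40A1 (ENSG00000138449.6, chromosome 2 from 190425316 to 190448484, minus strand), the exporter, received 1995, 2806 and 2377 reads after NFE2L2 silencing and 3379, 2692, 2064 and 1898 in the controls. The NFE2L2 siRNA libraries fell among the controls, which differed by control duplex. The log2 fold change was −0.15 (SE 0.188, 95% interval −0.57 to 0.27, edgeR adjusted p = 0.658; exact permutation p = 0.743), and its sign turned when control duplex 2 alone was the reference, to 0.17. The mock library had 1324 reads on SLC40A1, below every other library.

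FECH (ENSG00000066926.6, chromosome 18 from 55211609 to 55253964, minus strand), which inserts iron into protoporphyrin to make heme, was covered by 1281, 1458 and 1614 reads in the NFE2L2 siRNA libraries and by 2562, 2369, 2092 and 2170 in the controls. The 3 NFE2L2 duplexes gave closely similar levels, all below the lowest control. The level was 36.9 ± 1.06 CPM (SD, n = 3) against 62.2 ± 5.23 CPM (SD, n = 4), a log2 fold change of −0.75 (SE 0.0968, 95% interval −0.97 to −0.54, edgeR adjusted p = 0.00184). This was the smallest change among the 6 reduced genes, and it did not pass without control replicate 2 (edgeR adjusted p = 0.0122).

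ABCB6 (ENSG00000115657.8, chromosome 2 from 220074494 to 220083716, minus strand), an ABC transporter of porphyrins, was covered by 306, 386 and 265 reads in the NFE2L2 siRNA libraries and by 954, 954, 1009 and 896 in the controls. Both control duplexes gave like levels, and the groups were far apart. The level was 8.19 ± 1.82 CPM (SD, n = 3) against 25.8 ± 1.02 CPM (SD, n = 4), a 3.15-fold reduction with a log2 fold change of −1.66 (SE 0.154, 95% interval −2.0 to −1.31, edgeR adjusted p = 0.000269). In GENCODE its exons share 834 bases on the same strand with ENSG00000284820, a coding gene model that the count files do not list.

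**Figure D3:**
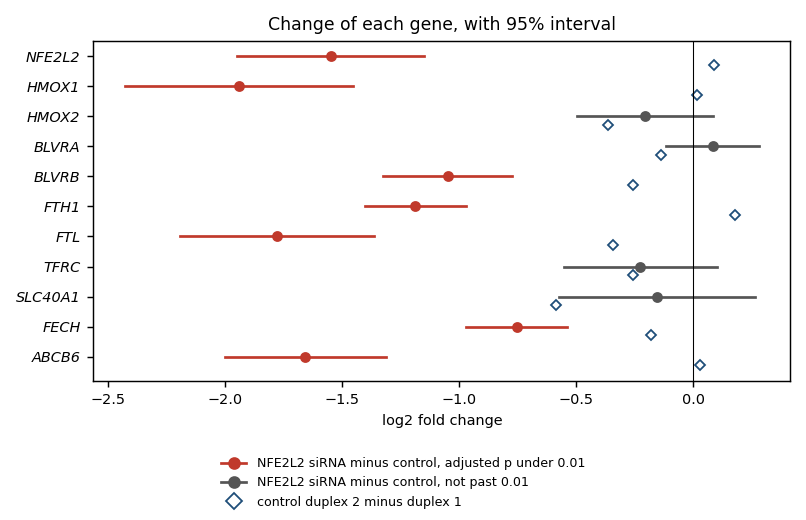
Change of NFE2L2 and of each of the 10 genes. The horizontal axis is the log2 fold change; filled circles with bars are NFE2L2 siRNA minus control with the 95% interval, red where the adjusted p was under 0.01, and open diamonds are control duplex 2 minus control duplex 1. The intervals of HMOX2, BLVRA, TFRC and SLC40A1 include 0.

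The 3 NFE2L2 duplexes reduced each of the 6 genes, to differing degrees. HMOX1 was at 17.1%, 36.8% and 24.3% of its control mean with duplexes 1, 2 and 3, and FTL at 22.5%, 37.5% and 27.4%. ABCB6 was at 33.1%, 38.0% and 24.1%. In these 3 genes, as in NFE2L2 itself, the level was highest with duplex 2. BLVRB was at 41.6%, 53.8% and 49.6% and had its highest level with duplex 2 too. FTH1 was at 41.1%, 43.6% and 47.2% and FECH at 57.5%, 59.5% and 60.9%, where duplex 3 gave the highest level. Each duplex was transfected once, so that differences between duplexes have no replicate check.

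**Figure D4:**
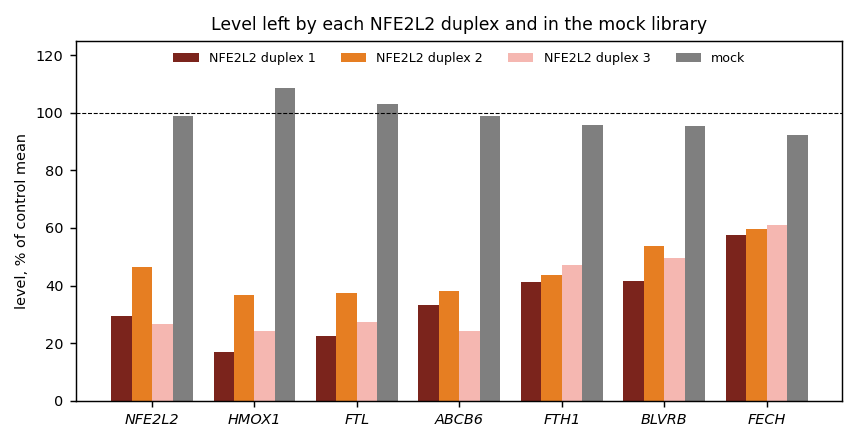
Level with each NFE2L2 duplex and in the mock library as a percentage of the mean of the 4 control libraries, for NFE2L2 and the 6 reduced genes. Bars start at 0, each is 1 library, and the dashed line is the control mean; all NFE2L2 siRNA bars lie under 61% and the mock bars between 92.2% and 108.7%.

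The mock library lay within the range of the control libraries for 8 of the 10 genes. It was above all controls for HMOX1, with 177 CPM or 108.7% of the control mean, and below all controls for SLC40A1, with 33.1 CPM or 48.8% of the control mean. It is a single library, and these differences have no replicate check.

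Control duplexes 1 and 2 were compared with each other to show how far the genes differ without NFE2L2 silencing, and 3.29% of 17261 tested genes passed the threshold in either direction. Of the 10 genes, 7 were lower and 3 higher with control duplex 2, where the median log2 fold change of all tested genes was 0.006. SLC40A1 was the 1 gene called, with 90.6 and 72.3 CPM with control duplex 1 and 55.7 and 52.5 CPM with duplex 2, a log2 fold change of −0.58 (SE 0.0949, edgeR adjusted p = 0.00478). With control replicate 1, 2, 3 or 4 left out, its log2 fold change was −0.42, −0.74, −0.62 and −0.55. Each of these fits leaves 1 library of a control duplex, and SLC40A1 passed in some of them and not in others. Nor did it pass where all genes with at least 1 read were tested (edgeR adjusted p = 0.109). HMOX2 had −0.36 (edgeR adjusted p = 0.0135), FTL −0.34 and BLVRB −0.26 (both with edgeR adjusted p = 0.0338), none of which passed with edgeR. With DESeq2, FTL (adjusted p = 3.09e-05) and HMOX2 (adjusted p = 0.00642) passed as well as SLC40A1, and BLVRB did not (adjusted p = 0.0126). HMOX1 and ABCB6 had values of 0.02 and 0.03.

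With control duplex 2 alone as the reference, 1 of the 10 genes, FTH1, passed the threshold, and with both libraries of a control duplex added together, 2 passed, FTH1 and ABCB6. Log2 fold changes with control duplex 2 alone were −1.95 for HMOX1, −0.91 for BLVRB, −1.59 for FTL, −0.66 for FECH and −1.67 for ABCB6, with adjusted p from 0.0130 for ABCB6 to 0.0466 for FECH.

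The surrounding pathway was described with 56 further genes of heme and iron biology, of which 48 were tested. Of the 22 genes on the heme side, 21 were tested, 3 were reduced and 0 increased, with a median log2 fold change of −0.20. Of all tested genes, 1.36% were reduced and 1.39% increased. ABCG2, an exporter of porphyrins and many drugs, received 1485, 1862 and 1237 reads after NFE2L2 silencing and 4701, 4290, 3329 and 3334 in the controls. Its log2 fold change was −1.43 (SE 0.184, edgeR adjusted p = 0.00185). SLC48A1, which moves heme out of the lysosome, had 668, 920 and 557 reads against 1443, 1532, 1360 and 1393 reads, a log2 fold change of −1.08 (SE 0.173, edgeR adjusted p = 0.00577). The groups did not overlap for either gene. ABCG2 was also called between the control duplexes, with a log2 fold change of −0.40 for duplex 2 minus duplex 1 (edgeR adjusted p = 0.00467). That difference did not pass where all genes with at least 1 read were tested (edgeR adjusted p = 0.0791). ABCG2 did not pass with control duplex 2 alone (edgeR adjusted p = 0.0396) or with summed controls (0.0255), and SLC48A1 did not pass with control duplex 1 alone (0.0548), control duplex 2 alone (0.0875), summed controls (0.0781) or in 5 of 7 omissions of a library (at most 0.0263).

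UGT1A1, which conjugates bilirubin, was read far less, with 3, 2 and 2 reads after NFE2L2 silencing and 14, 10, 16 and 10 in the controls. It passed with a log2 fold change of −2.44 (SE 0.432, edgeR adjusted p = 0.00901), but the NFE2L2 siRNA libraries are at or under the floor of 3 reads, its exons are shared with other UGT1A genes, and each of the 7 omissions of a library ended the call. The value is therefore uncertain.

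Of the 7 genes of heme synthesis before FECH that are reported here, 6 were tested. With edgeR 0 of them passed, where 1.36% of all tested genes were reduced and 1.39% increased, so that 0 of 6 says little. With DESeq2 and limma-voom 0 passed as well, and 1, ALAS1, had an unadjusted edgeR p under 0.05. Their log2 fold changes ran from −0.39 for ALAS1 to 0.07 for PPOX, and the lowest adjusted p was 0.120. BACH1, the heme-binding repressor, received 2189, 1735 and 2165 reads after NFE2L2 silencing and 2436, 2360, 2460 and 2516 in the controls. The groups did not overlap, and the log2 fold change of −0.35 (SE 0.116, edgeR adjusted p = 0.0968) did not pass the threshold.

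On the iron side, 27 of 34 genes were tested, and their median log2 fold change was 0.01. They cover uptake and reduction, ferritin loading, iron sensing, the hepcidin axis, export and mitochondrial iron, in part only. HAMP, HJV and TMPRSS6 of the hepcidin axis, HEPH of export, FTMT and STEAP4 had too few reads to be tested. NCOA4 was not matched. With edgeR 0 of the 27 tested genes passed the threshold, and DESeq2 and limma-voom also gave 0. Beside 1.36% of all tested genes reduced and 1.39% increased with edgeR, 0 of 27 says little about this side. An unadjusted p under 0.05 was found for 25% of all tested genes, 11.7% lower and 13.3% higher. On the iron side 5 of 27 genes had such a p (18.5%), 3 lower and 2 higher, and on the heme side 10 of 21 (47.6%), 8 lower and 2 higher.

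**Figure D5:**
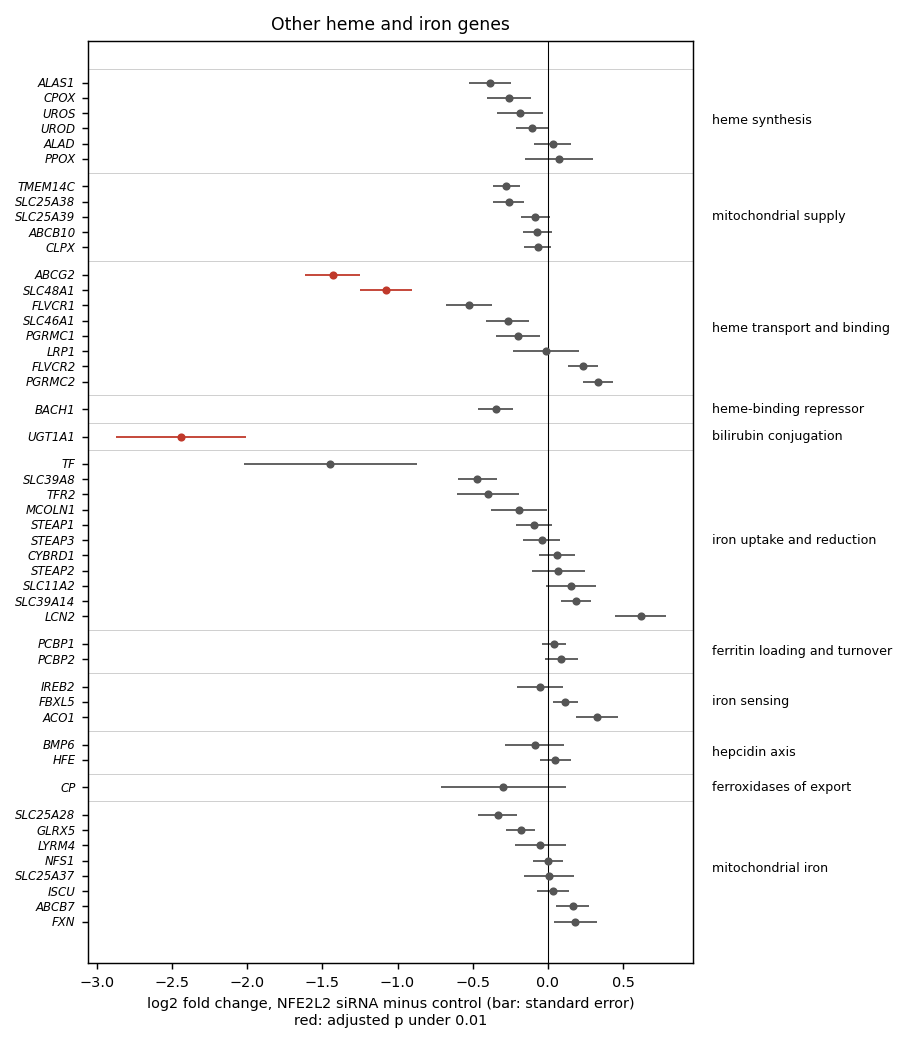
Log2 fold change, NFE2L2 siRNA minus control, of the 48 tested heme and iron genes outside the group of 10, grouped by role. Points are the fitted values and bars the standard error, and ABCG2, SLC48A1 and UGT1A1, in red, have an adjusted p under 0.01.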

How the data were processed

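A549 cells were profiled by strand-specific total RNA sequencing in 8 libraries, grouped by the titles in their labels. The authors aligned reads to hg19 (HISAT 0.1.6) and counted uniquely aligned reads per GENCODE gene on the annotated strand (HTSeq 0.6.0, per the submitters' processing notes); the deposited values are raw counts. Classes of unassigned reads were left out: 60.3% to 65.6% of all entries per library were on genes. Symbols and positions came from GENCODE release 44 mapped to GRCh37, in which 55538 identifiers were found; NCOA4 and PECAM1 were not matched and are not analysed here.

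Counts were normalized by TMM and tested with edgeR 4.0.16 (glmQLFit, glmQLFTest, R 4.3.3) for 3 NFE2L2 siRNA against 4 control siRNA libraries, without covariates; mock was not in the fit. A standard error is the size of the log2 fold change divided by the root of the F statistic. Alternatives were DESeq2 1.42.0, limma-voom 3.58.1, other scalings, filters, thresholds and controls, and omission of each library. The scripts were tested on simulated data. No 2 libraries were identical or agreed within sampling noise.

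The genes named are the 10 members, NFE2L2, genes of the wider list past the threshold (up to 10 each way), BACH1, and up to 2 of the most read pseudogenes of each ferritin. ALAS1, PPOX, the single marker genes and the untested genes of the iron side were named after their values were seen. A result on the heme side of the wider list is not reported here, and its counts leave it out. The members and lists, and the 9-letter search upstream, were chosen with earlier results of these data known. Promoter windows are RefSeq's (GRCh38.p14).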

Additional observations from a re-analysis of the deposited data

How the results depend on the processing

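Of 17811 genes, 491 passed the threshold, 243 of them reduced (49.5%), with 6 of the 10 genes, 3 of the wider list and a log2 fold change of −1.55 for NFE2L2. With DESeq2 1319 genes passed (592 reduced), with all genes of 1 read or more tested 1019 (445), with mock among the controls 772, and at a threshold of 0.05 1456 (631). With control duplex 1 alone 120 passed (96 reduced, 80%), 1 of the wider list among them, and NFE2L2 had −1.52 (adjusted p = 0.0229). With control duplex 2 alone 59 passed (53 reduced, 89.8%), with 1 of the 10 genes, 0 of the wider list and −1.59 for NFE2L2. With summed libraries per control duplex 78 passed (75 reduced, 96.2%), with 2 of the 10 genes, 0 of the wider list and −1.54 for NFE2L2, which did not pass under these 3 alternatives. These alternatives hold fewer samples, and the summed fit takes each control duplex, and not each transfection, as 1 sample. The cause of the lost calls was not tested.

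With single libraries left out, a lone remaining library being taken to vary like the others, 163 (without control replicate 2) to 915 genes (without NFE2L2 siRNA replicate 2) passed, 128 to 521 of them reduced, with 5 to 6 of the 10 genes, 1 to 2 of the wider list, and −1.85 to −1.39 for NFE2L2. The count was also moved by over 1.5 times without NFE2L2 siRNA replicate 3 (238) and control replicates 1 (277), 3 (198) and 4 (221). FTH1 passed under all 19 alternatives. HMOX1 did not pass with either control duplex alone or with summed controls, BLVRB and FTL with control duplex 2 alone or summed controls, ABCB6 with control duplex 2 alone, and FECH with either duplex alone, summed controls or without control replicate 2. The sign of SLC40A1 turned with control duplex 2 alone (0.17), with mock added (0.0023) and without control replicate 1 (0.018), over a range of −0.29 to 0.018 with single libraries left out.

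Between the control duplexes 568 genes and 1 of the 10 passed; with the 1-read filter 4 and 0, with DESeq2 3 of the 10, at 0.05 1736 and 4, and with single libraries left out, an alternative chosen after seeing the data, 0 to 2056 genes and 0 to 5 of the 10. No paired analysis was possible because a number names a duplex in the NFE2L2 siRNA libraries but a repeat within a duplex in the controls. Among the 4 control libraries, no gene of the group had a library set apart by Dixon's test. The NFE2L2 siRNA libraries were not tested in this way.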
